A study of Mus musculus with 9 samples.

Results

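The transcripts described here are those of pyruvate entry into mitochondria and of the tricarboxylic acid (TCA) cycle, in induced regulatory T cells with and without a Glut1 transgene. They comprise the mitochondrial pyruvate carrier, the pyruvate dehydrogenase complex with its kinases and phosphatases, pyruvate carboxylase, mitochondrial malic enzyme, the enzymes of the cycle and all subunits of succinate dehydrogenase. The members were chosen by gene symbol with earlier results of these data known, and all 33 were found among the 28111 genes of the count table. All 33 also passed the filter on low counts, which kept 14817 genes. Cells came from C57BL/6J mice. Glut1Tg libraries (n = 4) came from mice with the Glut1 transgene, which encodes a glucose transporter of the plasma membrane, and WT libraries (n = 5) from wild-type controls. Mouse group 2 held 1 Glut1Tg library (replicate 1) and 3 WT libraries (replicates 2, 4 and 5). Mouse group 1 held 3 Glut1Tg libraries (replicates 2, 3 and 4) and 2 WT libraries (replicates 1 and 3). The labels give no promoter for the transgene, no age, no culture conditions and no meaning for the mouse groups. They also leave unsaid whether each library had its own animal or culture. The p-values therefore rest on the spread among libraries, which may be technical in part.

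Pyruvate, the end product of glycolysis, crosses the inner mitochondrial membrane through a carrier built from Mpc1 and Mpc2. Inside, the pyruvate dehydrogenase complex turns it into acetyl-CoA, and pyruvate carboxylase turns it into oxaloacetate. The kinases Pdk1, Pdk2 and Pdk3 switch the dehydrogenase off by phosphorylation and the phosphatases Pdp1 and Pdp2 switch it back on. Citrate synthase joins acetyl-CoA with oxaloacetate, and the cycle then regenerates oxaloacetate while passing electrons to the respiratory chain. In T cells the balance between lactate production and mitochondrial oxidation of pyruvate is known to differ between effector and regulatory subsets.

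Total counts per library ranged from 20881035 to 31196428. CPM below are counts scaled to a common library total by TMM, a method that removes differences in library composition. Slc2a1, the gene of Glut1, stood at 260.2, 496, 279 and 457 CPM in Glut1Tg replicates 1 to 4, against 52.0, 36.6, 58.7, 33.3 and 29.7 CPM in WT replicates 1 to 5, so its levels matched the genotype labels in all 9 libraries. All 13 T cell and regulatory T cell markers were detected, and their summed level was 4638 to 8364 CPM in Glut1Tg and 5815 to 8120 CPM in WT. Foxp3, the defining factor of these cells, lay between 621 and 822 CPM in Glut1Tg and between 814 and 1164 CPM in WT. Summed proliferation markers (10 genes) reached 5727 CPM in Glut1Tg replicate 1 and 5441 CPM in WT replicate 2, both of mouse group 2, and 1076 to 2308 CPM in the other libraries. Glut1Tg replicate 3 held the highest sums of mast cell and basophil (2609 CPM, against 93.5 to 859 CPM elsewhere), myeloid (458 CPM, against 7.0 to 43.8 CPM) and erythroid and platelet markers (1068 CPM, against 4.92 to 290.4 CPM). Glut1Tg replicate 1 and WT replicate 2 held the lowest sums of all 4 lists of other cells that follow. These were mast cell and basophil (93.5 and 129 CPM, against 220.3 CPM or more elsewhere), myeloid (7.0 and 12.9 CPM, against 26.0 CPM or more), erythroid and platelet (4.92 and 5.60 CPM, against 52.3 CPM or more) and B cell markers (281 and 307 CPM, against 504 to 857 CPM). Markers of CD8 T and NK cells summed to 17.2 to 46.2 CPM in Glut1Tg, highest in replicate 3, and 17.9 to 23.4 CPM in WT. In each of these lists 0 genes were at 0 in all libraries. These are mixed RNA samples, in which fewer cells of a type and less RNA per cell cannot be told apart.

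Levels of different genes were compared as CPM per kilobase of the principal transcript, over WT libraries. Mdh2, the mitochondrial malate dehydrogenase, had the highest level of the 33 genes (154 ± 30.8 CPM per kilobase; SD, n = 5), followed by the cytosolic Mdh1 (108 ± 16.5), the iron-sulfur subunit gene of succinate dehydrogenase Sdhb (99.5 ± 11.8) and the NAD-dependent isocitrate dehydrogenase subunit genes Idh3g (96.0 ± 3.98) and Idh3b (93.8 ± 7.35). Sdhb, Idh3g and Idh3b did not differ beyond their spread. Over the length of all exons together, the order at the top was Mdh1, Sdhd and Mdh2, so rank among the most abundant genes depends on the transcript length used. The lowest 4 were the same with both lengths. They were Pdp1 (3.68 ± 0.468), Idh1, the cytosolic NADP-dependent isocitrate dehydrogenase (3.06 ± 1.12), Pcx, pyruvate carboxylase (2.89 ± 3.91), and Pdp2 (1.13 ± 0.350). Within the pyruvate dehydrogenase complex, the decarboxylating subunit genes Pdha1 (62.0 ± 4.61) and Pdhb (54.8 ± 3.97) stood far above Dlat, the acetyltransferase core (6.32 ± 2.08), and Pdhx, which anchors the shared dihydrolipoamide dehydrogenase Dld to that core (6.31 ± 1.47).

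The genes differed widely in how much they varied. The highest of the 9 libraries exceeded the lowest by 1.12-fold for Idh3g and 1.22-fold for Idh3b, but by 4.79-fold for Pdk2 and 22.9-fold for Pcx. Glut1Tg replicate 1 held the highest CPM of 17 of the 33 genes, against 22.6% of all genes tested, and Glut1Tg replicate 3 held the highest of 6, against 21.3% of all genes. WT replicates 1 and 3, of mouse group 1, held the highest of 0 members each, against 9.51% and 7.17% of all genes highest there. They held the lowest of 6 each, against 8.38% and 6.21% of all genes lowest there. WT replicate 5 held the lowest of 8, against 10.3%. The median member stood 0.32 above the WT mean on the log2 scale in Glut1Tg replicate 1 and 0.14 above it in Glut1Tg replicate 3, against 0.22 above it in WT replicate 2. In Glut1Tg replicates 2 and 4 it stood at -0.03 and -0.06, and in the other WT libraries between -0.14 and 0.02. The median of all genes tested lay between -0.02 and 0.02 in every library.

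**Figure D1:**
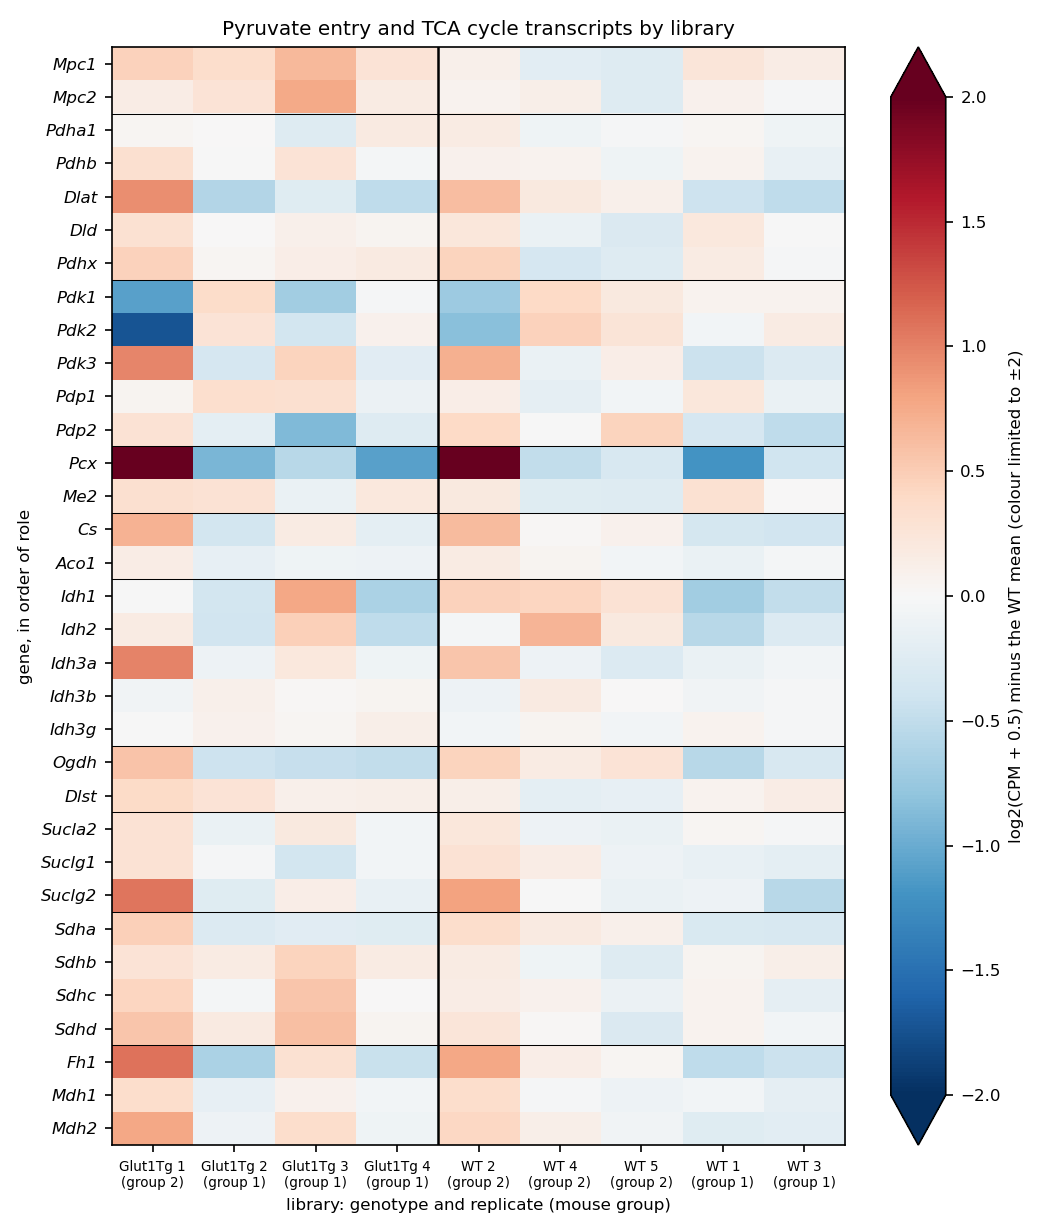
Each cell is the log2(CPM + 0.5) of 1 gene in 1 library minus the mean of the WT libraries, with genes in order of role, Glut1Tg libraries on the left and WT libraries on the right. Glut1Tg replicate 1 and WT replicate 2 share high Pcx, Fh1, Suclg2, Dlat and Pdk3 and low Pdk1 and Pdk2, and the carriers Mpc1 and Mpc2 are above the WT mean in all 4 Glut1Tg libraries.

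The main comparison asked whether transgenic glucose transport went with other levels of the enzymes that take up the product of glycolysis. No single gene of the group passed the test. By edgeR's quasi-likelihood test with mouse group as a term, 0 of the 33 genes passed an adjusted p under 0.05 between Glut1Tg and WT, and across all genes tested 0.00675% passed, which is Slc2a1 alone. DESeq2 and limma-voom also called 0 of the 33. At an unadjusted p under 0.05 there were 3 members, Mpc1, Sdhd and Mdh2, all higher in Glut1Tg, which is 9.09% of the group against 4.5% of all genes tested in that direction (1.5% were lower and 6% either). Fitted log2 fold changes were positive for 30 of the 33, against 52.4% of all genes, with a median of 0.18 over the members and 0.02 over all genes. The exceptions were Pdk1, Pdk2 and Pdp2. Within mouse group 1 alone (3 Glut1Tg and 2 WT libraries) the median was 0.06 over the members and 0.0037 over all genes. There 0 members had an unadjusted p under 0.05, with 294 of 15124 genes tested. In the interaction fit, 25 members had positive genotype fold changes within mouse group 1 (51.2% of all genes) and 27 within mouse group 2 (50.7%). The mouse group 2 values set 1 Glut1Tg library (replicate 1) against 3 WT libraries. Without Glut1Tg replicate 1 the median was 0.04 over the members and -0.02 over all genes. In that setting 0 members had an unadjusted p under 0.05, with 269 of 15128 genes tested. Without WT replicate 2 there were 6 members, with 1291 of 14678 genes tested.

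The carrier genes were the members whose genotypes did not overlap, 2 of 33 (6.06%) against 1.01% of all genes tested in that direction and 0.58% in the other. Mpc1 stood at 69.2, 64.3, 79.1 and 60.5 CPM in Glut1Tg replicates 1 to 4, against 59.3, 53.6, 55.5, 43.3 and 41.8 CPM in WT replicates 1 to 5. All 4 Glut1Tg libraries lay above all 5 WT libraries, but the lowest Glut1Tg library exceeded the highest WT library by little. The fitted fold was 1.3 (95% interval 1.03 to 1.63; edgeR unadjusted p = 0.0287, adjusted p = 0.681), and without Glut1Tg replicate 1 the log2 fold change was 0.21, against 0.38 with it. Mpc2 stood at 31.1, 34.0, 48.0 and 31.6 CPM in Glut1Tg, against 30.0, 29.7, 27.8, 30.5 and 23.4 CPM in WT, with a fitted fold of 1.23 (0.942 to 1.62; edgeR adjusted p = 0.681). The highest Mpc1 and Mpc2 values, and that of Sdhd below, were those of Glut1Tg replicate 3, the library with the highest mast cell, myeloid and erythroid marker sums, whose part in these results was not tested. Of the exons of Mpc1, 480 bases overlap the noncoding gene 4930506C21Rik on the opposite strand, which had 231 counts over all libraries against 13127 for Mpc1.

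None of the subunit genes of the pyruvate dehydrogenase complex passed the test between genotypes. Pdha1, which carries the sites the kinases phosphorylate, averaged 176 ± 21.8 CPM in Glut1Tg and 177 ± 13.1 CPM in WT (SDs over 4 and 5 libraries). It stood at 182, 177, 147 and 199 CPM in Glut1Tg replicates 1 to 4, against 181, 197, 165, 166 and 173 CPM in WT replicates 1 to 5, and the fitted fold was 1.01 (95% interval 0.826 to 1.24). Its exons share 603 bases with Map3k15 on the opposite strand (1088 counts over all libraries, against 39839 for Pdha1). Pdhb stood at 103, 82.0, 99.8 and 80.7 CPM in Glut1Tg replicates 1 to 4, against 86.6, 88.2, 74.8, 86.6 and 78.1 CPM in WT replicates 1 to 5, so the genotypes overlapped. It averaged 91.4 ± 11.6 CPM in Glut1Tg and 82.9 ± 6.00 CPM in WT, with a fold of 1.14 (0.936 to 1.38). Dld averaged 84.9 ± 7.91 CPM in Glut1Tg and 78.9 ± 12.0 CPM in WT. Pdhx averaged 18 ± 2.42 CPM in Glut1Tg and 15.8 ± 3.68 CPM in WT. Dlat had nearly the same mean in Glut1Tg (25.1 ± 14.7 CPM) and WT (25.5 ± 8.41 CPM), with a wide spread that followed mouse group, as given below.

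Among succinate dehydrogenase genes, which form complex II of the respiratory chain, Sdhd, a membrane anchor, stood at 141, 108, 146 and 99.2 CPM in Glut1Tg replicates 1 to 4, against 101, 114, 91.9, 96.7 and 78.3 CPM in WT replicates 1 to 5. Replicates 1 and 3 were the high Glut1Tg libraries, and the other 2 lay within the WT range. The fitted fold was 1.31 (95% interval 1.01 to 1.70; edgeR unadjusted p = 0.0430, adjusted p = 0.681), and without Glut1Tg replicate 1 the log2 fold change was 0.26, against 0.39 with it. Sdhb averaged 136 ± 12.8 CPM in Glut1Tg and 114 ± 13.5 CPM in WT (fold 1.18, 0.956 to 1.45), and the other anchor gene Sdhc averaged 69.9 ± 14.5 CPM in Glut1Tg and 58.3 ± 5.81 CPM in WT (fold 1.24, 0.962 to 1.6). Sdha, the flavoprotein that oxidises succinate, averaged 234 ± 66.1 CPM in Glut1Tg and 244 ± 49.8 CPM in WT.

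Mdh2, which closes the cycle by oxidising malate, stood at 377, 207, 283 and 209 CPM in Glut1Tg, against 186, 295, 190.2, 238 and 210.1 CPM in WT. Glut1Tg replicate 1 lay above all WT libraries, and replicate 3, the next highest in Glut1Tg, lay below WT replicate 2. The fitted fold was 1.34 (95% interval 1.05 to 1.72; edgeR unadjusted p = 0.0254, adjusted p = 0.681), and without Glut1Tg replicate 1 the log2 fold change was 0.275, against 0.423 with it. The cytosolic Mdh1 had a fold of 1.1 (0.890 to 1.37).

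The kinase genes did not share a pattern, and none passed the test between genotypes. Pdk1 stood at 46.0, 126, 60.1 and 96.8 CPM in Glut1Tg replicates 1 to 4, against 102, 59.2, 103, 129 and 113 CPM in WT replicates 1 to 5. Pdk2 stood at 7.0, 29.4, 18.7 and 25.7 CPM in Glut1Tg, against 23.5, 13.4, 27.2, 33.5 and 29.2 CPM in WT. Both were lowest in Glut1Tg replicate 1, and WT replicate 2 was the lowest WT library for both. Pdk3 ran the other way, at 55.5, 22.0, 38.3 and 23.9 CPM in Glut1Tg and 20.5, 45.8, 23.1, 25.5 and 30.6 CPM in WT. The fitted genotype folds were 0.715 for Pdk1 (95% interval 0.420 to 1.22), 0.633 for Pdk2 (0.319 to 1.26) and 1.41 for Pdk3 (0.980 to 2.04), all with an edgeR adjusted p of 0.681 or 0.682. Without Glut1Tg replicate 1 the log2 fold change was -0.143 for Pdk1, against -0.485 with it, and 0.33 for Pdk3, against 0.50 with it. The phosphatase Pdp1 averaged 17.2 ± 2.66 CPM in Glut1Tg and 15.5 ± 1.97 CPM in WT.

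**Figure D2:**
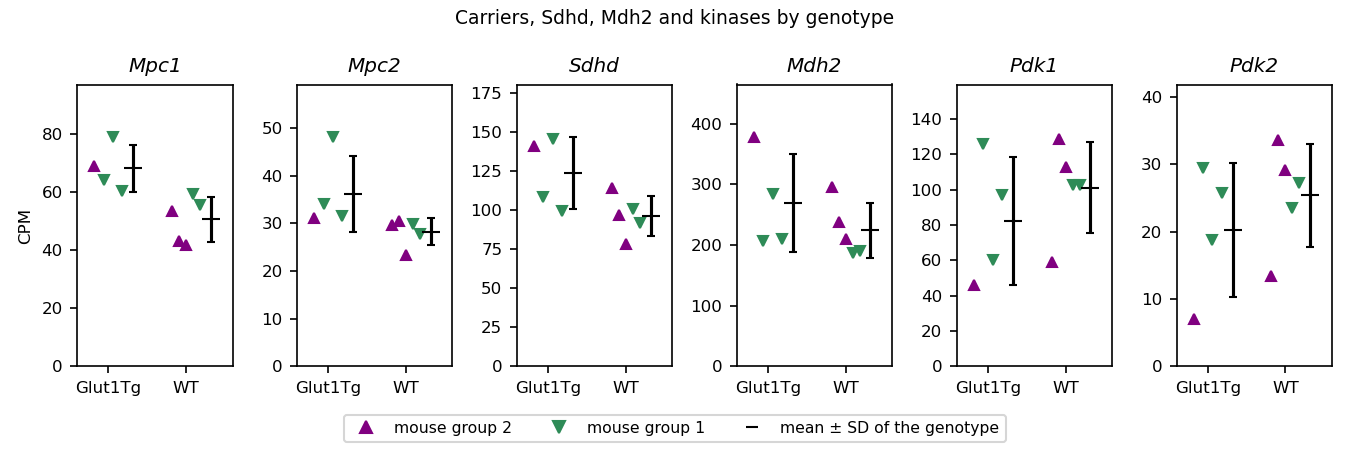
CPM of the carriers, Sdhd, Mdh2, Pdk1 and Pdk2 in each library, with Glut1Tg on the left and WT on the right of each panel, upward triangles for mouse group 2 and downward triangles for mouse group 1, and bars for the mean ± SD of the genotype. Mpc1 and Mpc2 do not overlap between genotypes, while the lowest Pdk1 and Pdk2 values are those of Glut1Tg replicate 1, at 46.0 and 7.0 CPM.

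Of the enzymes beside and within the cycle, Me2, the mitochondrial malic enzyme that makes pyruvate from malate, stood at 149.5, 145.6, 108.5 and 138.5 CPM in Glut1Tg replicates 1 to 4, against 147, 137, 119.7, 100.4 and 99.7 CPM in WT replicates 1 to 5. Idh3a stood at 88.8, 41.6, 51.7 and 41.8 CPM in Glut1Tg, against 40.6, 65.7, 42.5, 41.4 and 36.8 CPM in WT. Dlst stood at 171, 159.9, 141 and 143 CPM in Glut1Tg, against 139, 143, 146, 115 and 117 CPM in WT. Idh3b stood at 144, 162, 154 and 156 CPM in Glut1Tg, against 145, 141, 149, 171 and 152 CPM in WT. Suclg1, the alpha subunit shared by both succinyl-CoA ligases, stood at 80.0, 64.7, 50.6 and 62.8 CPM in Glut1Tg, against 59.3, 79.8, 57.2, 72.8 and 61.2 CPM in WT. The genotypes overlapped for all 5, and for Idh3a the highest library of each genotype was in mouse group 2.

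The remaining members gave fitted genotype folds with intervals that included 1 and adjusted p of 0.681 or more by edgeR. They included Cs, citrate synthase (1.25, 0.949 to 1.65), Idh3a, the catalytic subunit of the NAD-dependent isocitrate dehydrogenase (1.34, 0.953 to 1.89), Suclg2, the GDP-forming succinyl-CoA ligase subunit (1.38, 0.949 to 2.00), Fh1, fumarase (1.37, 0.932 to 2.01), and Dlst, the succinyltransferase of oxoglutarate dehydrogenase (1.16, 0.944 to 1.42). Without Glut1Tg replicate 1 the log2 fold changes were 0.08 for Idh3a, 0.03 for Dlst, 0.21 for Suclg2 and 0.23 for Fh1, against 0.42, 0.21, 0.46 and 0.45 with it. Those of Pcx and Dlat turned negative, at -0.13 and -0.02, against 0.79 and 0.25 with it. Idh3b (1.02, 0.852 to 1.22), Idh3g (1.02, 0.876 to 1.2) and Aco1, a cytosolic aconitase that also binds iron-responsive elements (1.01, 0.848 to 1.2), had the fitted folds nearest to 1 together with Pdha1 and Pdp2. Members given by range over the 9 libraries were Idh1 (3.92 to 11.7 CPM), Idh2 (21.4 to 50.7 CPM), Idh3g (123 to 138 CPM), Aco1 (38.7 to 49.0 CPM), Sucla2 (47.0 to 63.4 CPM) and Mdh1 (200.4 to 289 CPM).

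**Figure D3:**
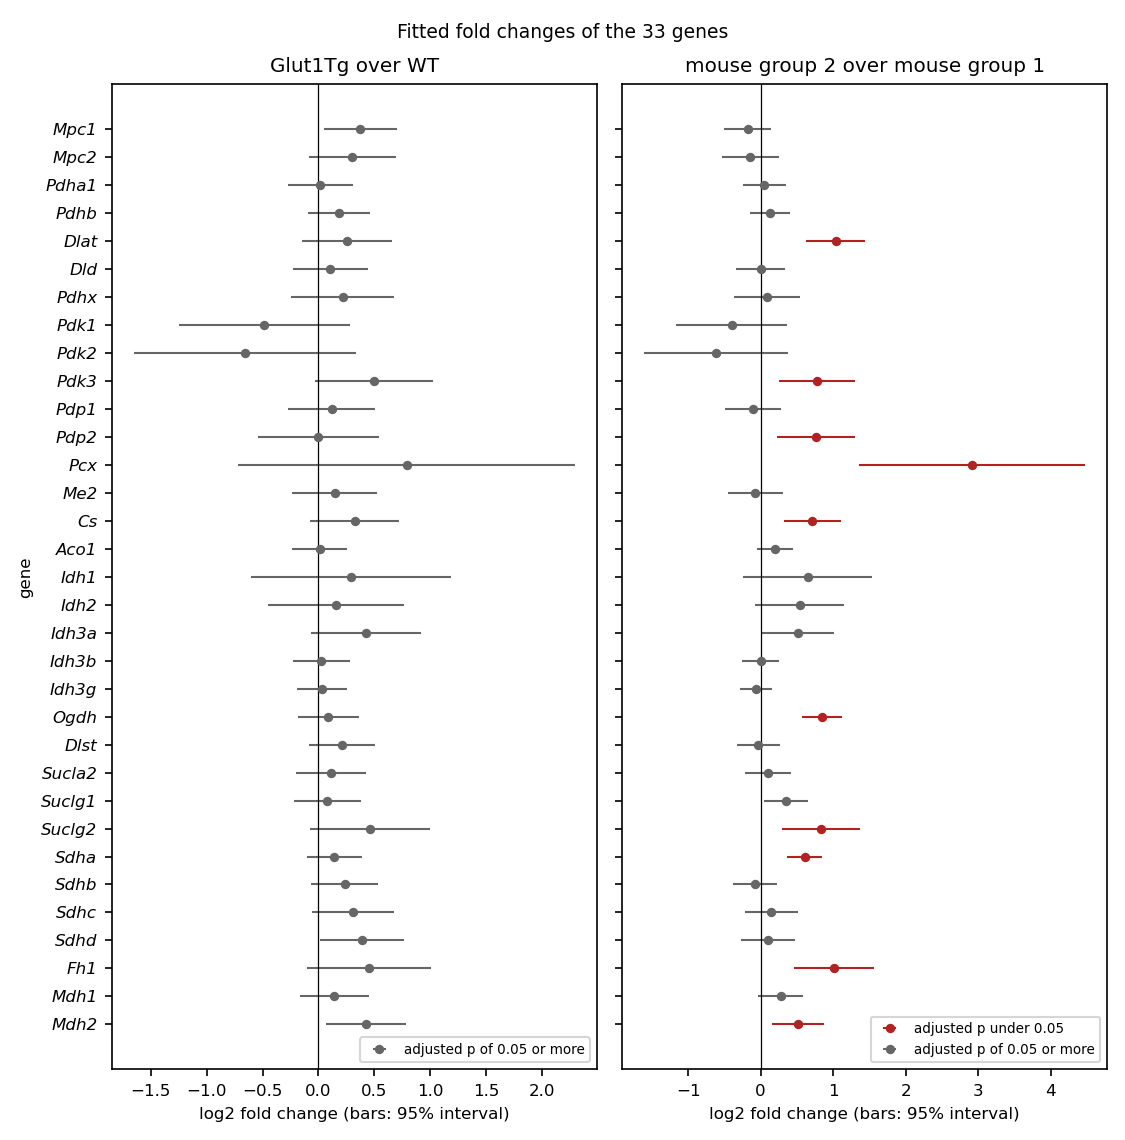
Points are log2 fold changes of each of the 33 genes fitted by edgeR, Glut1Tg over WT on the left and mouse group 2 over mouse group 1 on the right, with 95% intervals. In the left panel 0 genes pass an adjusted p under 0.05 and 30 are positive, and in the right panel the 10 genes in red pass, all of them higher in mouse group 2.

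The second comparison was that of mouse group 2 with mouse group 1, read from the same fit. Of the 33 genes, 10 rose in mouse group 2 and 0 fell (edgeR adjusted p under 0.05). That is 30.3% of the members, against 13.1% of all genes tested that were called higher, 11% called lower and 24.1% called in either direction. The genes that rose were Dlat of the pyruvate dehydrogenase complex, its kinase gene Pdk3 and phosphatase gene Pdp2, pyruvate carboxylase (Pcx), and the cycle genes Cs, Ogdh, Suclg2, Sdha, Fh1 and Mdh2. At an unadjusted p under 0.05 there were 12, with Idh3a and Suclg1 added, all higher, against 21% of all genes higher and 18.4% lower. The log2 fold change was positive for 23 members (49.2% of all genes), with a median of 0.15 over the members and -0.01 over all genes. DESeq2 called the same 10, and limma-voom called 9 of them, without Mdh2. A setting added after the data were seen used the WT libraries alone (3 of mouse group 2 and 2 of mouse group 1). There 0 members were called, with 4.18% of all genes. At an unadjusted p under 0.05 these libraries gave 8 of the 33 members and 3654 of 15176 genes tested, in either direction. In the WT libraries without WT replicate 2, 7 members were called, with 19.3% of all genes. The number of members called depended on which libraries were included. Without Glut1Tg replicate 1, Ogdh was the member still called, with 4.3% of all genes tested. Without WT replicate 2 there were 5 (Cs, Dlat, Fh1, Ogdh and Sdha), with 14.5% of all genes called in either direction. Without both libraries, mouse group 2 was represented by WT replicates 4 and 5 and 0 members were called, with 3.74% of all genes. At an unadjusted p under 0.05 that setting gave 6 of the 33 members and 3291 of 14990 genes tested, in either direction. Members called were 6 without WT replicate 1, 5 without WT replicate 3, and 6 each without Glut1Tg replicate 2 or Glut1Tg replicate 4. The shares of all genes called were 13%, 13.4%, 16.8% and 16.1%. Without Glut1Tg replicate 3 there were 12, with Idh1 and Idh2 added and 30.5% of all genes. In each of these settings all calls among the members were higher in mouse group 2, whereas the shares of all genes count both directions.

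Pcx, which refills the cycle with oxaloacetate, had the largest fold. It stood at 64.5 CPM in Glut1Tg replicate 1 and 40.0, 4.94 and 5.64 CPM in WT replicates 2, 4 and 5 of mouse group 2, against 3.53, 4.71 and 3.11 CPM in Glut1Tg replicates 2, 3 and 4 and 2.82 and 5.28 CPM in WT replicates 1 and 3 of mouse group 1. The other 2 libraries of mouse group 2 thus stood at the level of mouse group 1. The fitted fold was 7.55 (95% interval 2.57 to 22.2; edgeR adjusted p = 0.0176), and without both high libraries the log2 fold change was 0.40 (adjusted p = 0.587), against 2.92 with them. The 2 high libraries are also those with the highest sums of proliferation markers and the lowest of mast cell, myeloid, erythroid and B cell markers, whose part in the result was not tested.

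Ogdh, the decarboxylating subunit gene of oxoglutarate dehydrogenase, showed the other pattern. It stood at 217 CPM in Glut1Tg replicate 1 and 199, 165 and 178 CPM in WT replicates 2, 4 and 5 of mouse group 2, against 109.7, 106 and 104 CPM in Glut1Tg replicates 2, 3 and 4 and 99.7 and 117 CPM in WT replicates 1 and 3 of mouse group 1. All 4 libraries of mouse group 2 lay well above all 5 of mouse group 1. The fitted fold was 1.80 (95% interval 1.49 to 2.17; edgeR adjusted p = 0.00300), the smallest p of the 33 genes.

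Dlat stood at 46.9 CPM in Glut1Tg replicate 1 and 37.8, 28.2 and 26.2 CPM in WT replicates 2, 4 and 5 of mouse group 2, against 16.1, 20.5 and 17.0 CPM in Glut1Tg and 18.3 and 17.0 CPM in WT libraries of mouse group 1. The groups did not overlap, and the fitted fold was 2.05 (95% interval 1.55 to 2.71; edgeR adjusted p = 0.00578). Sdha likewise did not overlap, at 333, 305, 271 and 256 CPM in mouse group 2, against 198, 204, 201, 193 and 192 CPM in mouse group 1, where the 5 libraries differed by little. Its fitted fold was 1.52 (1.28 to 1.81; edgeR adjusted p = 0.00668). Together with Pdp2 these were the members whose mouse groups did not overlap, 4 of 33 (12.1%), which is near the 10.5% of all genes tested that were higher without overlap (11.4% were lower).

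Fh1 stood at 80.3, 64.6, 41.3 and 38.6 CPM in mouse group 2, against 24.0, 46.5, 27.5, 26.4 and 27.9 CPM in mouse group 1. Glut1Tg replicate 3, at 46.5 CPM, was the mouse group 1 library within the range of mouse group 2. The fitted fold was 2.02 (95% interval 1.37 to 2.96; edgeR adjusted p = 0.0195). Cs averaged 248 ± 60.8 CPM in mouse group 2 (SD, n = 4) and 163 ± 28.9 CPM in mouse group 1 (SD, n = 5), with a fold of 1.64 (1.25 to 2.16; edgeR adjusted p = 0.0204). Its libraries stood at 307, 294, 192 and 200.3 CPM in mouse group 2, against 146, 213, 164, 147 and 144 CPM in mouse group 1, with Glut1Tg replicate 3 again the overlapping library.

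Suclg2 averaged 50.9 ± 20.9 CPM in mouse group 2 and 31.3 ± 5.44 CPM in mouse group 1 (fold 1.78; edgeR adjusted p = 0.0345). Pdk3 averaged 39.4 ± 13.8 CPM in mouse group 2 and 25.6 ± 7.25 CPM in mouse group 1 (fold 1.71; edgeR adjusted p = 0.0411). Its WT replicates 4 and 5 of mouse group 2, at 25.5 and 30.6 CPM, lay within the mouse group 1 range of 20.5 to 38.3 CPM. Mdh2 averaged 280.2 ± 73.6 CPM in mouse group 2 and 215 ± 39.3 CPM in mouse group 1 (fold 1.43; edgeR adjusted p = 0.0444). For Mdh2 too, WT replicates 4 and 5, at 238 and 210.1 CPM, lay within the mouse group 1 range of 186 to 283 CPM. Its own genotype fold, given above, did not pass. Pdp2 stood at 7.68, 8.32, 6.16 and 8.60 CPM in mouse group 2, against 5.32, 3.12, 5.09, 4.80 and 4.22 CPM in mouse group 1 (fold 1.70; edgeR adjusted p = 0.0447). Suclg2 stood at 74.8, 62.0, 35.0 and 31.9 CPM in mouse group 2, against 29.6, 38.7, 31.6, 32.8 and 23.7 CPM in mouse group 1. Its WT libraries 4 and 5 of mouse group 2, at 35.0 and 31.9 CPM, lay within the mouse group 1 range of 23.7 to 38.7 CPM.

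**Figure D4:**
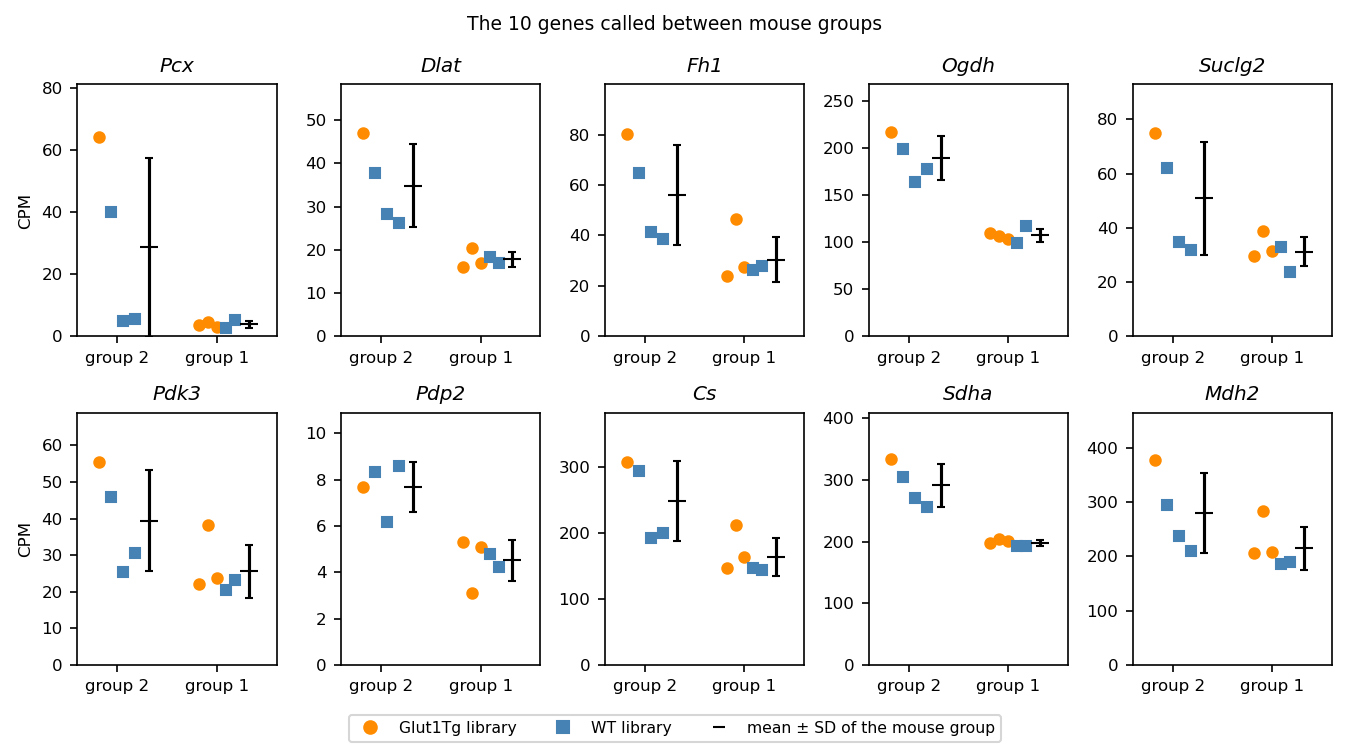
CPM of the 10 genes called between mouse groups, with mouse group 2 on the left and mouse group 1 on the right of each panel, circles for Glut1Tg and squares for WT libraries, and bars for the mean ± SD of the mouse group. Ogdh, Dlat, Sdha and Pdp2 separate all libraries by mouse group, whereas Pcx is high in 2 libraries of mouse group 2 and at 5.64 CPM or below in the other 7.

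The bases before the start sites of the 4 genes with the largest mouse group folds are shown because these promoters belong to the genes that rose most. They are from RefSeq on GRCm38.p6, the assembly of mm10, each read 5′ to 3′ on the strand of its gene (the last 26 bases of the Ogdh window are left out), with matches to any of 4 motifs in capitals. Capitals mark an E-box in Pcx and a cyclic AMP response element in Ogdh, and Dlat and Fh1 hold no match. Pcx lies on the plus strand at chr19:4510222-4510471, Dlat on the minus strand at chr9:50659781-50660030, Fh1 on the minus strand at chr1:175625636-175625885 and Ogdh on the plus strand at chr11:6291409-6291632.
Pcx: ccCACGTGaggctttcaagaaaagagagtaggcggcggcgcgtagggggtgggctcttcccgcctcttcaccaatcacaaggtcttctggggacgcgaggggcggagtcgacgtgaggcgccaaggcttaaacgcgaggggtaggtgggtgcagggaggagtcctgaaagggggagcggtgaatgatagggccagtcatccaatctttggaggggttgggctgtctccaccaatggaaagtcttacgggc
Dlat: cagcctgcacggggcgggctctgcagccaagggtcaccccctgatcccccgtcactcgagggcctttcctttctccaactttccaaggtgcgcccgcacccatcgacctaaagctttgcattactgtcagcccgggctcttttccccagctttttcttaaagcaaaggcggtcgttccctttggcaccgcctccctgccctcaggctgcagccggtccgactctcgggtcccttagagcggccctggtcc
Fh1: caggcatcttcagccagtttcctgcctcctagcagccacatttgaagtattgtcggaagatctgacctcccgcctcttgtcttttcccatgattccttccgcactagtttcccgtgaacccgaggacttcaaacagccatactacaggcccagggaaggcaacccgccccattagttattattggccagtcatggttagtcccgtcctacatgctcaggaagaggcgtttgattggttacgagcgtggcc
Ogdh: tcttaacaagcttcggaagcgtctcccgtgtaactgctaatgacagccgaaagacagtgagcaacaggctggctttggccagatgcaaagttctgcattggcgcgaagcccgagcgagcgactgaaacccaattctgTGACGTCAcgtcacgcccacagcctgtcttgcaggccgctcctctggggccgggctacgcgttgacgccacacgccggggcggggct
The motifs searched on both strands were the E-box CACGTG, bound by MYC and related factors, the cyclic AMP response element TGACGTCA, the NRF1 motif and the estrogen-related receptor motif TCAAGGTCA. The E-box and the cyclic AMP response element share the central letters ACGT. Windows of the 250 bases before a RefSeq start were found for 29 members, each the window nearest the start of the principal transcript. The windows of all genes were not reduced in this way, and some genes had several. The E-box was in 3 of them (Pcx, Pdk2 and Pdp2; 10.34%), against 6.02% of all 32817 windows. The cyclic AMP response element was in 2 (Ogdh and Mdh2, 6.90%), against 1.55%, and the NRF1 motif was in 3 (Sdha, Sdhd and Sucla2, 10.34%), against 3.73%. The last 169 bases of the Mdh2 window lie past the start of its principal transcript, and its match is not in the bases before that start. The estrogen-related receptor motif was in 0, against 0.387%. The CCAAT box was in 17 windows (58.62%), against 33.8%, and is not in capitals. These shares describe letters and not binding.

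Ratios between partner genes within a library do not depend on library scaling. These ratios were chosen with values known and are given with no test. Sdha over Sdhb, subunits of the same enzyme, had a log2 ratio of 1.28 in Glut1Tg replicate 1 and 1.26, 1.35 and 1.45 in WT replicates 2, 4 and 5 of mouse group 2, against 0.65, 0.41 and 0.67 in Glut1Tg and 0.71 and 0.64 in WT libraries of mouse group 1. The mouse groups were fully apart. Dlat over Pdhb lay between -1.62 and -1.13 in mouse group 2 and between -2.35 and -2.13 in mouse group 1, again with no overlap. Here Sdhb and Pdhb had mouse group folds of 0.945 (95% interval 0.768 to 1.16) and 1.09 (0.902 to 1.33).

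Other ratios set apart Glut1Tg replicate 1 and WT replicate 2 rather than the mouse group. Pdk3 over Pdk1 was 0.27 and -0.37 on the log2 scale in these libraries and -0.65 in Glut1Tg replicate 3, against -2.52 to -1.88 in the other 6. Idh3a over its partner Idh3b was -0.70 and -1.1 in them and -2.05 to -1.58 in the other 7. Suclg2 over Sucla2, the beta subunits that make succinyl-CoA ligase specific for GDP or ADP, was 0.24 and 0.04, against -1.11 to -0.47. Pcx over Pdha1 was -1.50 and -2.30, against -6.01 to -4.94. Idh2 over Idh1, the mitochondrial against the cytosolic NADP-dependent enzyme, ran from 1.72, in WT replicate 2, to 2.51, in WT replicate 3.

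**Figure D5:**
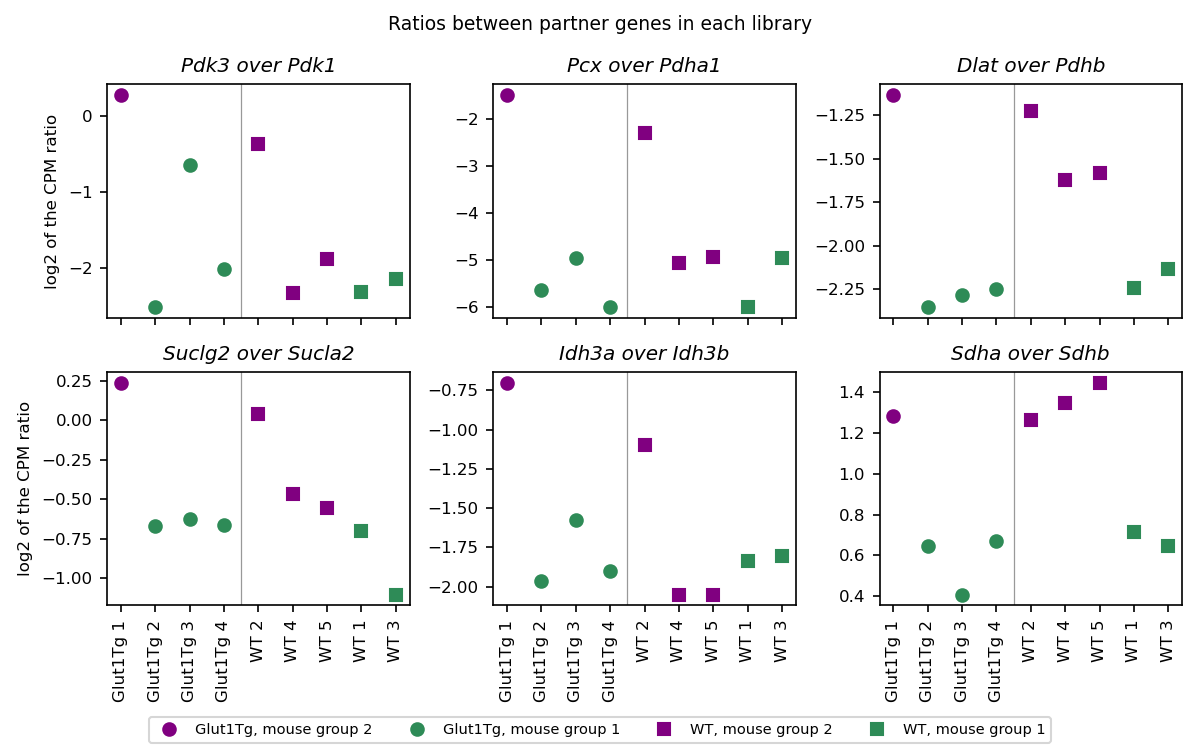
Log2 ratios of CPM between partner genes in each library, with Glut1Tg libraries left of the line and WT libraries right of it, purple for mouse group 2 and green for mouse group 1. Sdha over Sdhb and Dlat over Pdhb separate the mouse groups, while the other 4 ratios are highest in Glut1Tg replicate 1 and WT replicate 2 or, for Pdk3 over Pdk1, in these and Glut1Tg replicate 3.

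The difference between the genotype effects in mouse group 2 and mouse group 1 was tested as an interaction. By edgeR 0 of the 33 genes passed and 0% of all genes tested passed, and DESeq2 and limma-voom also called 0 members (2 and 0 of all genes). At an unadjusted p under 0.05 there was 1 member, Pdk2, with a negative interaction, against 4.08% of all genes in that direction and 5.3% in either. Its edgeR interaction p was 0.0195 and its adjusted p was 0.741 by the same fit across all genes. The log2 fold change of Pdk2 fitted within mouse group 2 was -1.86 and that within mouse group 1 was -0.04. Mouse group 2 had a single Glut1Tg library, so this value is that library against 3 WT libraries. Without WT replicate 2, Pcx was called (1 member), as were 140 genes in all (0.954%), with Glut1Tg replicate 1 then the single library at a high level.

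Genes around the cycle were read from the same fit. In the genotype comparison 0 members of any of 7 such lists passed. The list around lipoate, the cofactor of the pyruvate and oxoglutarate dehydrogenases, includes enzymes that make or attach it and genes of iron-sulfur cluster assembly. It was tested for 10 of 10 genes. Of these, 3 were higher in Glut1Tg at an unadjusted p under 0.05, among them Glrx5, a mitochondrial glutaredoxin of iron-sulfur cluster assembly (49.6 ± 16.8 CPM in Glut1Tg, 32 ± 3.51 CPM in WT; edgeR unadjusted p = 0.0257, adjusted p = 0.681), and Bola3 (20.3 ± 5.45 CPM in Glut1Tg, 15.0 ± 2.06 CPM in WT; edgeR adjusted p = 0.681). Glrx5, Bola3 and Lipt2, the 3 genes, were each highest in Glut1Tg replicate 3 (73.5 CPM for Glrx5, against 34.1 to 46.2 CPM in the other Glut1Tg libraries), the library with the most mast cell and erythroid marker RNA, whose part was not tested. All 8 malate-aspartate and citrate shuttle genes had positive genotype fold changes, against 52.4% of all genes tested. The dicarboxylate carrier Slc25a10 was the 1 at an unadjusted p under 0.05 (21.1 ± 15.1 CPM in Glut1Tg, 14.7 ± 7.26 CPM in WT, edgeR adjusted p = 0.681). Its Glut1Tg replicate 1 stood at 43.0 CPM, the other Glut1Tg libraries at 9.90 to 19.1 CPM and WT at 8.31 to 27.0 CPM. At that unadjusted p, 4.5% of all genes tested were higher in Glut1Tg.

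Between mouse groups these lists went in both directions, and their counts stand beside 13.1% of all genes called higher, 11% lower and 24.1% either. Genes named here are those called, and the lists were chosen with earlier results of these data known. In the lipoate list 0 rose and 3 fell in mouse group 2, Lias, the lipoate synthase (34.4 CPM in mouse group 2, 50.2 CPM in mouse group 1; edgeR adjusted p = 0.0120), Isca1 (34.6 CPM in mouse group 2, 66.9 CPM in mouse group 1; edgeR adjusted p = 0.00477) and Iba57 (8.24 CPM in mouse group 2, 17.3 CPM in mouse group 1; edgeR adjusted p = 0.00461). The succinate dehydrogenase assembly factor gene Sdhaf1 fell as well (27.2 CPM in mouse group 2, 56.6 CPM in mouse group 1; edgeR adjusted p = 0.0116), the 1 called of 4 in its list, while Sdha rose. In the shuttle list 2 of 8 rose, the oxoglutarate-malate carrier Slc25a11 (89.9 CPM in mouse group 2, 56.4 CPM in mouse group 1; edgeR adjusted p = 0.0119) and Slc25a10 (24.3 CPM in mouse group 2, 12.1 CPM in mouse group 1; edgeR adjusted p = 0.0219). Of 7 tested genes of lactate and pyruvate exchange, Ldha (1015 CPM in mouse group 2, 581 CPM in mouse group 1; edgeR adjusted p = 0.0474) and the lactate exporter Slc16a3 (58.7 CPM in mouse group 2, 14.8 CPM in mouse group 1; edgeR adjusted p = 0.0112) rose and Ldhb fell (18.5 CPM in mouse group 2, 25.7 CPM in mouse group 1; edgeR adjusted p = 0.0335). Slc16a3 stood at 116 CPM in Glut1Tg replicate 1 and 77.8, 19.1 and 21.8 CPM in WT replicates 2, 4 and 5 of mouse group 2, against 12.2 to 19.6 CPM in mouse group 1. Of 8 genes of glutamine entry, Aldh18a1 and Gls2 rose. For Slc16a3, Slc25a10, Ldha, Gls2, Aldh18a1 and Bckdk alike, Glut1Tg replicate 1 and WT replicate 2 were the highest libraries, and the other libraries of mouse group 2 stood far below them. In the branched-chain keto acid dehydrogenase list, which shares Dld, the kinase gene Bckdk rose (64.0 CPM in mouse group 2, 36.9 CPM in mouse group 1; edgeR adjusted p = 0.0164) and the transacylase gene Dbt fell (16.8 CPM in mouse group 2, 33.2 CPM in mouse group 1; edgeR adjusted p = 0.00213). Of 7 tested genes of other mitochondrial redox and dicarboxylate enzymes, Suox and D2hgdh rose and 0 fell.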

How the data were processed

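RNA from induced regulatory T cells was sequenced in 9 libraries (stranded mRNA kit, paired ends, per the labels' protocols). The authors deposited raw read counts per gene, made with TopHat2 and featureCounts on mm10, per the submitters' processing notes; no source used here gives the strand setting of the counting. Their deposited table of log2 values was not used. Counts per library ranged from 20881035 to 31196428. Genes were kept by filterByExpr (14817 of 28111) and tested with edgeR 4.0.16 (quasi-likelihood, TMM) in R 4.3.3, with genotype and mouse group as terms over all 9 libraries and Benjamini-Hochberg adjustment over all genes. The method was tested on simulated data. Alternatives were DESeq2 1.42.0, limma-voom 3.58.1, other filters, scaling and covariates, and leaving out libraries. The members and lists were chosen with earlier results of these data known. Values in every library are given for members that passed a threshold and, per role, for those with the highest mean or the smallest genotype p. Replicate numbers of the titles were not taken as pairs, and no 2 libraries agreed within sampling noise. Lengths are from GENCODE transcripts of GRCm38, and upstream sequences from RefSeq on GRCm38.p6.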

Additional observations from a re-analysis of the deposited data

Results flagged for a closer look

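Of the 66 sets made by the 33 genes and both genotypes, 7 had a library that stood apart by Dixon's criterion, where chance gives about 1 in 20. In Glut1Tg these were 4 values of replicate 1, which stood above the other Glut1Tg libraries: Dlat at 46.9 CPM, Pcx at 64.5 CPM, Ogdh at 217 CPM and Sdha at 333 CPM. In WT they were 3 values of replicate 2, which stood above the other WT libraries: Pcx at 40.0 CPM, Idh3a at 65.7 CPM and Mdh1 at 289 CPM. Glut1Tg replicate 1 is the Glut1Tg library of mouse group 2, so for these genes it differs from the other Glut1Tg libraries in mouse group as well. Both libraries held the highest sums of proliferation markers, at 5727 CPM in Glut1Tg replicate 1 and 5441 CPM in WT replicate 2. They also held the lowest sums of mast cell (93.5 and 129 CPM), myeloid (7.0 and 12.9 CPM), erythroid (4.92 and 5.60 CPM) and B cell markers (281 and 307 CPM). The part of these markers in these values was not tested.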

How the results depend on the processing

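Between genotypes 0 members were called under every alternative run. The count over all genes, 1, was 2 without a filter on low counts, 7 with DESeq2, 0 without both WT replicate 2 and Glut1Tg replicate 1, 0 within mouse group 1, and 1 to 2 when single libraries were left out. Between mouse groups the count over all genes, 3576, was 561 without both libraries, 635 in WT libraries only, and 651 to 4575 without single libraries; the members called, 10, were 0, 0, and 1 to 12. Interaction calls among members ran from 0 to 1 without single libraries, and that fit could not be made without Glut1Tg replicate 1. The genotype direction under the alternatives was read for 20 of the 33 members, those picked by the rule in the processing section. It turned for Pcx, whose log2 fold change of 0.789 was the highest of all members, and for some with values of 0.254 or less. Without a mouse group term they were -0.00174 for Pdha1, -0.0211 for Dlat, -0.175 for Ogdh, -0.0345 for Suclg1 and -0.0557 for Sdha. With at least 10 counts in every library they were -0.0147 for Pdha1 and -0.00591 for Idh3b. Without both libraries they were -0.0149 for Pdha1, -0.0156 for Dlat, -0.129 for Pcx, -0.0533 for Me2 and -0.0524 for Ogdh. Within mouse group 1 they were -0.103 for Pcx, -0.0314 for Me2 and -0.0292 for Ogdh. Without single libraries they ran from -0.0447 to 0.0699 for Pdha1, -0.0157 to 0.318 for Dlat, -0.0784 to 0.106 for Pdp2, -0.129 to 1.27 for Pcx, -0.0533 to 0.236 for Me2, -0.0458 to 0.0745 for Idh3b and -0.0523 to 0.18 for Ogdh. The cause was not tested.

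Deviations of same-numbered libraries from their genotype means correlated at -0.512, -0.592, 0.226 and -0.212 for replicates 1 to 4. Numbers 1, 2 and 4 join libraries of different mouse groups, a difference these deviations still hold. The correlations therefore cannot show whether the replicate numbers of the titles pair the libraries. With the replicate block, 0 genes and 0 members were called for genotype (with or without a mouse group term) and for mouse group. Reversed genotype values with the block and a mouse group term were -0.0243 for Pdha1, and with the block alone -0.0137 for Pdha1, -0.0959 for Dlat, -0.231 for Pcx, -0.149 for Ogdh, -0.0669 for Suclg1 and -0.0471 for Sdha.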
